A study of Mus musculus with 15 samples.

Results

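Methyl transfer and choline metabolism in the liver was followed through 9 genes, which were the rows of the count table with the symbols Mat1a, Gnmt, Pemt, Nnmt, Cbs, Chdh, Bhmt, Dmgdh and Sardh, out of 55573 genes in the table. The rule named the genes and set no threshold on their values, and all 9 passed the filter on low counts that left 17655 genes for testing. Liver RNA was sequenced from 15 mice aged 8 weeks, of which 6 were WT (3 of each sex) and 9 were ESR1KO (5 females and 4 males). All mice came from the strain B6N(Cg)-Esr1tm4.2Ksk/J, and the WT mice were littermates of the knockouts. ESR1KO mice were homozygous for a deletion of exon 3 of Esr1, the gene of estrogen receptor alpha. The deletion is in every tissue and not in hepatocytes alone, and the study describes ESR1KO mice of both sexes as infertile with raised testosterone, so a missing liver receptor and altered hormones cannot be told apart in these groups.

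S-adenosylmethionine is the methyl donor of the cell, and the liver makes most of it from methionine. Methyltransferases pass its methyl group to glycine, to phosphatidylethanolamine or to nicotinamide, and the homocysteine that remains is either drawn off towards cysteine or methylated back to methionine. One methyl source for that return step is betaine, the product of choline oxidation, whose remaining methyl groups are released in mitochondria as dimethylglycine and sarcosine are broken down.

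Levels were expressed as CPM (the count of a gene relative to the total of its library), with libraries aligned by TMM on the bulk of their genes. A gene was called where the edgeR quasi-likelihood test gave a Benjamini-Hochberg adjusted p below 0.05 over all tested genes, and log2 differences are given with their standard error (SE). Total counts lay between 27799061 and 78624766 per mouse, and the 9 genes received between 0.543% and 0.986% of them. The lowest count of any of the 9 genes in any mouse was 899, for Nnmt. Esr1 averaged 81.9 CPM in WT females and 36.1 CPM in WT males, against 13.1 and 11.9 CPM in ESR1KO females and males, and the 2 genotypes did not overlap in either sex. The 7 hepatocyte markers (among them Alb and Apoa1) were all detected in every group, whereas the 5 adipocyte markers summed to at most 9.39 CPM and the 4 pancreatic markers to at most 0.036 CPM. The library of ESR1KO female 1 stood apart from its group: the SD of its log2 difference from the other ESR1KO females was 0.424 over 8488 genes, against 0.165 to 0.319 for the remaining libraries, and it was the lowest ESR1KO female for 7 of the 9 genes. Without it, the log2 difference between ESR1KO and WT females was -0.23 for Mat1a, -0.04 for Gnmt, -0.01 for Pemt, -0.93 for Nnmt, -0.25 for Cbs, 0.21 for Chdh, 0.40 for Bhmt, -0.17 for Dmgdh and -0.28 for Sardh, and the 9 genes gave 0 calls in that comparison and 0 between the ESR1KO sexes. A place at the end of a group was not particular to that mouse. In the WT groups of 3, WT male 3 was lowest for 8 of the 9 genes. WT female 3 was highest for 8 and WT male 1 for 7.

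Per kilobase of annotated exon, which allows levels of different genes to be compared, Gnmt led with a mean of 1013 CPM per kilobase over the 15 mice. It was followed by Mat1a with 855, Bhmt with 342, Sardh with 151, Pemt and Dmgdh with 114 each, Cbs with 53.1, Nnmt with 42.2 and Chdh with 32. The ranges of Gnmt (744 to 1337) and Mat1a (573 to 1091) overlapped, as did those of Pemt (73 to 136) and Dmgdh (75.6 to 140). Dividing by the longest annotated transcript raised Pemt to 240 and Bhmt to 496 CPM per kilobase. The order changed with it: Pemt then lay above Sardh (182), and Cbs and Nnmt were level at 63.8.

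**Figure D1:**
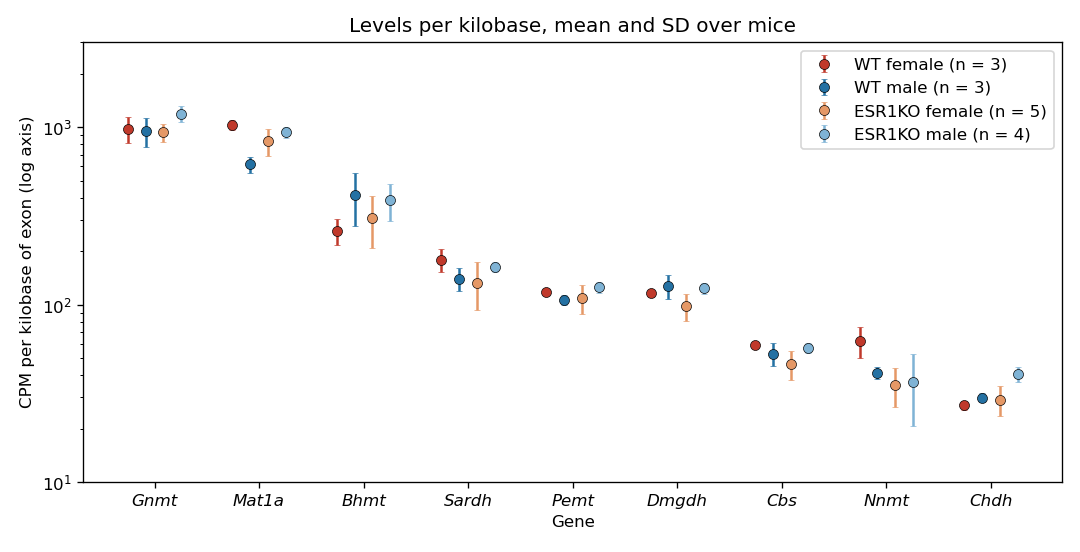
Level of each gene in CPM per kilobase of exon (log axis) in the 4 groups; points are means and whiskers SDs over mice (n = 3 in each WT group, 5 in ESR1KO females and 4 in ESR1KO males). Gnmt (mean 1013 over all mice) and Mat1a (855) lie highest and Chdh (32) lowest, and the sex difference of Mat1a in WT mice is visible as separated points.

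The sex difference of WT mice, the effect of the knockout in each sex and the sex difference left among ESR1KO mice were the comparisons of interest, and they share groups. Of the 9 genes, only Mat1a was called between WT females and WT males, where 4.87% of all tested genes were called (2.67% higher in females and 2.2% lower). None was called between ESR1KO females and ESR1KO males (0.272% of all genes), between ESR1KO and WT females (5.71%, of which 3.14% higher and 2.57% lower in ESR1KO) or between ESR1KO and WT males (1.42%, of which 0.833% higher and 0.583% lower). At unadjusted p below 0.05 the 9 genes gave 2 in the WT sex comparison, 4 in the ESR1KO sex comparison, 3 in the female genotype comparison and 2 in the male one, where all genes gave 17.3%, 17.5%, 22.5% and 11.9%. The DESeq2 Wald test called 1 of the 9 in each of these comparisons, against 6.04%, 2.95%, 8.88% and 2.73% of the genes it tested. The interaction, which is the effect of the knockout in females minus that in males, was called for Mat1a alone (1.94% of all genes, 1.02% positive and 0.923% negative). No member reached a log2 difference of 1.5, which together with the adjusted p was passed by 1.81%, 0.142%, 1.2%, 0.578% and 1.09% of genes in these 5 comparisons.

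**Figure D2:**
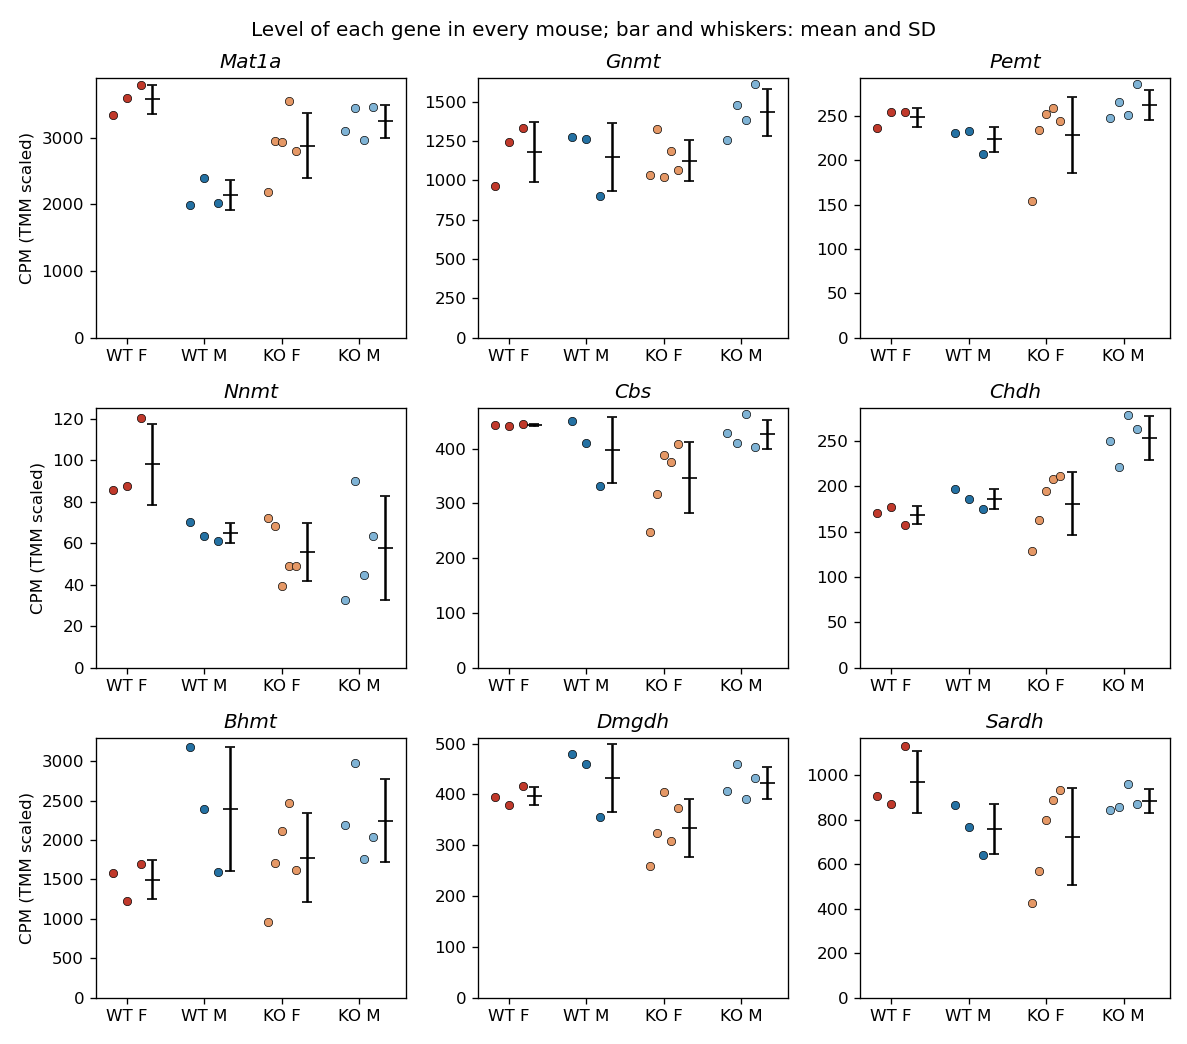
CPM of each of the 9 genes in every mouse by group (WT F and WT M are WT females and males, KO F and KO M the ESR1KO sexes); each point is 1 mouse and the bar and whiskers are mean and SD. WT males lie below the other groups for Mat1a except for ESR1KO female 1 (2180 CPM), WT females lie highest for Nnmt except for ESR1KO male 2 (90.2 CPM), and ESR1KO males lie above the other groups for Chdh.

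Mat1a (ENSMUSG00000037798, GRCm38 chr14:41105035-41124412, plus strand) encodes the methionine adenosyltransferase of hepatocytes, which makes S-adenosylmethionine. It was 1.67-fold higher in WT females than in WT males. WT females had 3341, 3593 and 3783 CPM and WT males 1986, 2400 and 2022 CPM, and the 2 groups did not overlap. ESR1KO females had 2180, 2942, 2928, 3547 and 2804 CPM and ESR1KO males 3104, 3450, 2963 and 3460 CPM. In the knockout the order of the sexes on the means was the opposite, with 2880 ± 487 (SD, n = 5) CPM in females and 3244 ± 250 (SD, n = 4) CPM in males, but the groups overlapped.

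The log2 difference of Mat1a between WT females and WT males was 0.74 (SE 0.163, adjusted p = 0.012). Between ESR1KO females and males it was -0.17 (95% interval -0.45 to 0.11, adjusted p = 0.503), and -0.09 without ESR1KO female 1. The effect of the knockout differed between the sexes, with an interaction of -0.91 (SE 0.21, adjusted p = 0.0305) and a log2 difference of -0.31 (SE 0.144, adjusted p = 0.213) in females and 0.60 (SE 0.154, adjusted p = 0.068) in males, neither of which was called alone. The male difference was called by DESeq2 (adjusted p = 0.00266) and with only the 2 groups in the fit (0.0259). ESR1KO and WT males did not overlap. The sex call was lost without WT female 3 (adjusted p = 0.0563) or WT male 1 (0.0664). The interaction was lost without any 1 of WT females 1 to 3, WT males 1 and 3, or ESR1KO males 1, 2 and 4, with adjusted p from 0.0533 to 0.103, while its log2 value stayed between -1 and -0.83 in all 15 such fits. The male genotype difference was called without ESR1KO female 1 (adjusted p = 0.0167) or ESR1KO female 4 (0.0438), which changes the shared estimate of the spread and not the 2 groups. Without ESR1KO female 1 the interaction was -0.83 (adjusted p = 0.016).

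Alb, the serum albumin gene, averaged 86410 CPM in WT females, 54550 CPM in WT males, 74510 CPM in ESR1KO females and 72340 CPM in ESR1KO males. It made up most of the summed level of the 7 hepatocyte markers, which was 104000 to 112000 CPM in WT females, 80400 to 81100 CPM in WT males, 86900 to 111000 CPM in ESR1KO females and 91000 to 99800 CPM in ESR1KO males, and the part of these values in the Mat1a differences was not tested. Of the 7 markers 2 were higher and 5 lower in WT females, with a median log2 difference of -0.33 and 1 called, higher. The sums of ESR1KO females 1 to 5 were 98800, 111000, 97800, 86900 and 90000 CPM, beside Mat1a levels of 2180, 2942, 2928, 3547 and 2804 CPM. In bulk tissue a change in the number of cells of a type cannot be told apart from a change in RNA per cell. Mat2a, which encodes the isoenzyme found outside the adult liver parenchyma, had group means of 13.4 to 16.2 CPM per kilobase, against 616 to 1030 for Mat1a, and was called in none of the comparisons between the groups. The genes whose log2 CPM followed Mat1a most closely over the 15 mice, out of 8487 compared, were Ugt1a5 (Pearson r 0.917) and Tm6sf2 (0.914). This is a description of 15 livers that share the 4 groups.

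Gnmt (ENSMUSG00000002769, chr17:46725664-46729168, minus strand) encodes glycine N-methyltransferase, which uses surplus S-adenosylmethionine to make sarcosine. It was not called in any comparison. WT females had 963, 1242 and 1330 CPM, WT males 1278, 1264 and 897 CPM, ESR1KO females 1031, 1323, 1021, 1185 and 1067 CPM, and ESR1KO males 1258, 1476, 1385 and 1612 CPM. All 4 groups overlapped with their neighbours in level. The WT sex difference was 0.04 (95% interval -0.32 to 0.40), which leaves room for a difference of either sign, and its sign changed without a filter on low counts. ESR1KO females were below ESR1KO males by a log2 value of -0.35 (95% interval -0.64 to -0.06, adjusted p = 0.22).

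Pemt (ENSMUSG00000000301, chr11:59970614-60046489, minus strand) encodes the enzyme that methylates phosphatidylethanolamine to phosphatidylcholine, the route by which animals make choline themselves. Its group means lay between 224 CPM in WT males and 263 CPM in ESR1KO males. WT females (236 to 255 CPM) and WT males (208 to 233 CPM) did not overlap, nor did ESR1KO males (248 to 286 CPM) and WT males. Neither difference was called, with log2 values of 0.15 (95% interval -0.18 to 0.48, adjusted p = 0.681) and 0.23 (95% interval -0.08 to 0.54, adjusted p = 0.598). Of all genes tested 30.1% had WT sexes that did not overlap, and 15.9% had ESR1KO and WT males that did not. The spread of ESR1KO females (43 CPM) came mainly from ESR1KO female 1, which had 154 CPM where the other 4 had 234 to 259 CPM.

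Nnmt (ENSMUSG00000032271, chr9:48591877-48605153, minus strand) encodes nicotinamide N-methyltransferase, which spends S-adenosylmethionine on nicotinamide. WT females had the highest mean, with 85.7, 87.9 and 121 CPM. WT males had 70.5, 63.6 and 61.2 CPM, ESR1KO females 72.1, 68.3, 39.4, 49.2 and 49.0 CPM, and ESR1KO males 32.5, 90.2, 44.9 and 63.5 CPM. WT females did not overlap with WT males or with ESR1KO females, but ESR1KO male 2 reached into their range.

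ESR1KO females had 0.567 times the Nnmt level of WT females (log2 -0.82, SE 0.253, 95% interval -1.35 to -0.28), and with an adjusted p of 0.069 the difference was not called. It was called by DESeq2 (adjusted p = 0.024), without a filter on low counts (0.0172), and without ESR1KO male 1 (0.0354) or ESR1KO male 2 (0.0345). Leaving out WT female 3 gave an adjusted p of 0.279, and leaving out ESR1KO female 1 gave -0.93 (adjusted p = 0.0505). The groups of females did not overlap for 2 of the 9 genes, Nnmt and Cbs, against 15.6% of all genes. The WT sex difference was 0.59 (95% interval -0.02 to 1.20, adjusted p = 0.308), which was called with only the 2 groups in the fit (0.0379), and the interaction was -0.65 (95% interval -1.44 to 0.14, adjusted p = 0.435).

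Marker sums of pericentral hepatocytes, periportal hepatocytes and adipocytes were set beside the female genotype comparison. The 7 pericentral hepatocyte markers (among them Glul and Cyp2e1) summed to 7920 to 9970 CPM in WT females and 4210 to 8740 CPM in ESR1KO females, with 2 of 7 called lower and 0 higher, and the lowest sum was that of ESR1KO female 1. Cyp2e1 made up most of that sum, with means of 6240 CPM in WT and 4287 CPM in ESR1KO females. The median log2 difference of the 7 was -0.49, with 0 positive. The 7 periportal markers summed to 5270 to 7290 CPM in WT females and 4590 to 5620 CPM in ESR1KO females. Their median log2 difference was -0.35, with 3 of 7 positive, 1 called higher and 0 lower. Pck1 was the largest part of the periportal sum, with means of 3397 CPM in WT and 2082 CPM in ESR1KO females. The adipocyte markers, from a tissue that also uses Nnmt, summed to 0.0236 to 0.14 CPM in WT females and 0.272 to 1.1 CPM in ESR1KO females. In ESR1KO males they summed to 0.916 to 9.39 CPM. Only 1 of the 5, Cfd, passed the filter on low counts, and it was not called between the groups of females. Cfd averaged 0.0382 CPM in WT females, 0.483 CPM in ESR1KO females and 3.31 CPM in ESR1KO males. At least 1 of these 5 markers was at 0 throughout each group. The part of these marker lists in the Nnmt values was not tested.

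Cbs (ENSMUSG00000024039, chr17:31608894-31637238, minus strand) encodes cystathionine beta-synthase, which commits homocysteine to cysteine synthesis. WT females were nearly equal at 444, 441 and 445 CPM, and WT males had 450, 409 and 331 CPM. ESR1KO females had 247, 317, 388, 375 and 408 CPM, all below the WT females, and ESR1KO males had 429, 411, 463 and 403 CPM. The female genotype difference was -0.35 (95% interval -0.66 to -0.05, adjusted p = 0.16) and was not called. Without ESR1KO female 1 it was -0.25 (adjusted p = 0.221).

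The remaining 4 genes carry choline through betaine to glycine. Chdh (ENSMUSG00000015970, chr14:30009023-30040527, plus strand) encodes choline dehydrogenase, the mitochondrial enzyme that begins the oxidation. ESR1KO males had the highest levels of Chdh, with 250, 221, 279 and 263 CPM. WT females had 170, 177 and 157 CPM, WT males 197, 186 and 175 CPM, and ESR1KO females 128, 163, 194, 208 and 212 CPM. The ESR1KO males overlapped with none of the other groups, and those 3 overlapped with each other.

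Against WT males, ESR1KO males had a log2 difference of 0.45 for Chdh (SE 0.149, 95% interval 0.13 to 0.76, adjusted p = 0.19). It was called without ESR1KO female 1 (adjusted p = 0.0465) and with only the 2 groups in the fit (0.0407). Against ESR1KO females the difference was -0.48 for females minus males (SE 0.129, adjusted p = 0.109), which DESeq2 called (adjusted p = 0.0203), and -0.38 without ESR1KO female 1. Chdh was the only 1 of the 9 genes whose ESR1KO sexes did not overlap, which held for 5.22% of all genes. It was called where ESR1KO males were set against WT females, a comparison made for the order of the groups (log2 0.59, adjusted p = 0.0238, 7.41% of all genes called). That call was lost without any 1 of the 3 WT females or of ESR1KO males 1, 3 and 4, with adjusted p from 0.0528 to 0.117. In the remaining pairing, ESR1KO females against WT males, 2.61% of all genes and none of the 9 were called, 2 of the 9 had an unadjusted p below 0.05 (17.4% of all genes), and Mat1a was called by DESeq2 (adjusted p = 0.0474, 5.21% of all genes called) and without ESR1KO female 1 (0.0368). The exons of Chdh share 589 bases with those of Cacna1d on the opposite strand, but Cacna1d received at most 129 counts in any mouse against at least 5640 for Chdh.

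**Figure D3:**
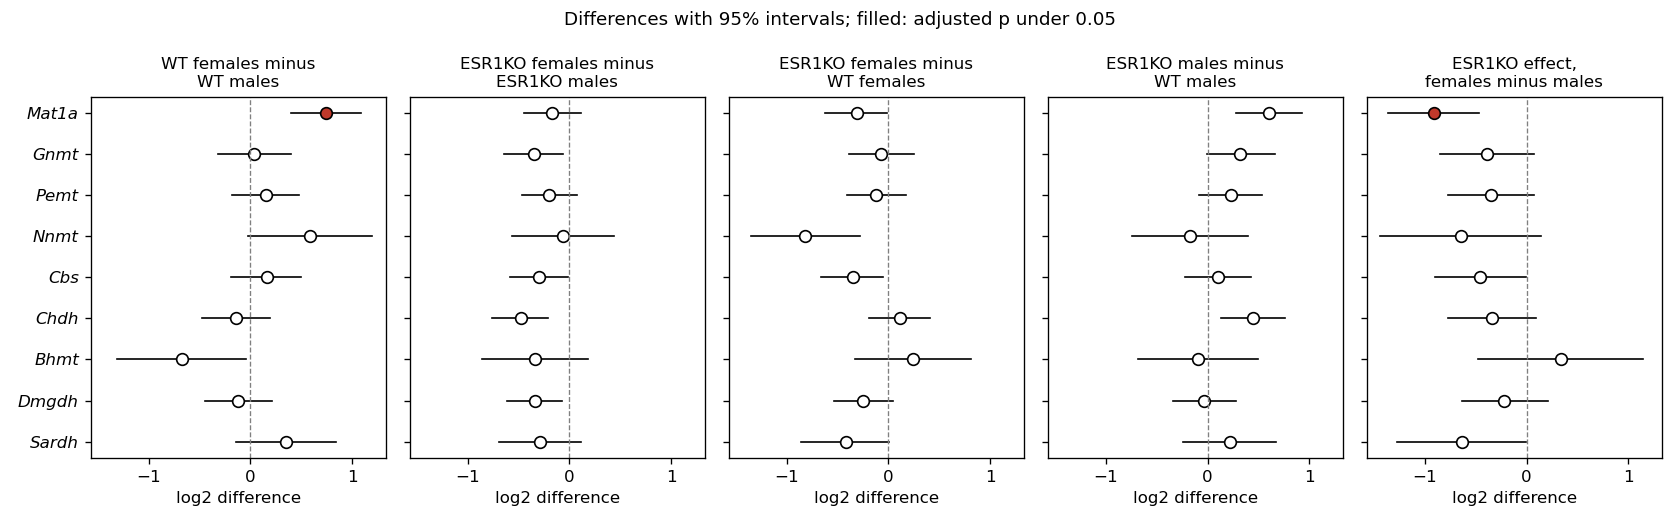
Log2 differences of the 9 genes in 5 comparisons; points are edgeR estimates, lines are 95% intervals, and filled points have an adjusted p below 0.05. Mat1a is filled in the WT sex comparison (0.74) and in the interaction (-0.91), no point is filled elsewhere, and all 9 estimates are below 0 between ESR1KO females and males.

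Bhmt (ENSMUSG00000074768, chr13:93616675-93637961, minus strand) encodes betaine-homocysteine methyltransferase, which returns a methyl group from betaine to homocysteine. It was among the most variable of the 9 genes within groups. WT females had 1575, 1220 and 1699 CPM, WT males 3176, 2395 and 1599 CPM, ESR1KO females 962, 1706, 2111, 2469 and 1621 CPM, and ESR1KO males 2195, 2983, 1757 and 2032 CPM. The WT sexes overlapped, and the log2 difference of -0.67 (95% interval -1.31 to -0.04, adjusted p = 0.257) fell to -0.41 without WT male 1. The female genotype difference was 0.24 (95% interval -0.33 to 0.81), and it was 0.40 without ESR1KO female 1, 0.09 without ESR1KO female 4 and 0.12 without WT female 2. The male difference was -0.09 (95% interval -0.68 to 0.50). The gene that followed Bhmt most closely was Gm5096 (r 0.982), but 11.4% of the 50-base windows of Bhmt transcripts also occur in Gm5096, and its 382 to 1316 counts per mouse were far fewer than the 42310 to 152823 of Bhmt, so how much of Gm5096 is its own signal is uncertain.

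Dmgdh (ENSMUSG00000042102, chr13:93674433-93752833, plus strand) encodes dimethylglycine dehydrogenase, which removes a methyl group from the dimethylglycine that Bhmt leaves. It lies head to head with Bhmt2, which encodes a paralog of Bhmt that takes its methyl group from S-methylmethionine. The interval between the 2 genes is shown because both start from it. Chdh is shown beside it, as the member that was called when ESR1KO males were set against WT females, and Pemt because its first promoter window holds a motif match. All are RefSeq sequences of build GRCm38.p6 on the strand of Dmgdh, Chdh and Pemt, and the capitals mark a match to TTCNNNGAA, the letters bound by STAT factors. The Pemt stretch lies before a RefSeq start that is inside the GENCODE bounds of the gene (59970614-60046489), not before their outer end.
Between Bhmt2 and Dmgdh, chr13:93674303-93674435, plus strand: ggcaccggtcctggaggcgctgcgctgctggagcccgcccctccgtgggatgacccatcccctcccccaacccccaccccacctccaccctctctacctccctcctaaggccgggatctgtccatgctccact
Upstream of Chdh, chr14:30008850-30008999, plus strand: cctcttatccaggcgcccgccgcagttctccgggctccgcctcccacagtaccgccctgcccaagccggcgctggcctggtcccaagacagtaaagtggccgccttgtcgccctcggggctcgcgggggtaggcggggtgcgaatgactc
Upstream of Pemt, chr11:60040189-60040338, minus strand: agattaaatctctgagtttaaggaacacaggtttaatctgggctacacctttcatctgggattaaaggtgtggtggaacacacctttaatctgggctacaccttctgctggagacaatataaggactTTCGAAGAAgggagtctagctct

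The interval between the RefSeq starts of Bhmt2 and Dmgdh is 133 bases long with 69.9% G and C and 6 CpG. By the GENCODE start of Dmgdh (93674433) its last bases lie within that gene. The 150 bases shown for Chdh hold 70.7% and 15 CpG, and those shown for Pemt 42.7% and 1 CpG. Each of the latter is the first of several windows: the other 2 of Chdh hold 44% with 1 CpG and 55.3% with 0 CpG before the start, and the second of Pemt 51.3% with 0 CpG. Promoter windows of 300 bases (250 before a start and 50 after it) were found for 7 of the 9 genes, 10 windows in all, and none for Mat1a and Nnmt. Both strands were searched for the estrogen receptor palindrome (inverted repeats of the response element spaced by 3 bases), for TTCNNNGAA and for TGTTTAC, the forkhead letters. The palindrome and the forkhead letters were in none of the 10 windows, and TTCNNNGAA was in 2, at -23 from the first Pemt start and at -156 from the second Chdh start. Of 32851 windows of the same length over all genes, 0.07% held the palindrome, 8.3% TTCNNNGAA and 3.65% TGTTTAC. A match is only a run of letters, and the absence of a match says nothing of the factor.

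Dmgdh had 395, 380 and 416 CPM in WT females, 480, 460 and 356 CPM in WT males, 258, 325, 405, 308 and 373 CPM in ESR1KO females, and 406, 460, 390 and 433 CPM in ESR1KO males. Bhmt2 ran from 135 CPM in ESR1KO female 1 to 241 CPM in ESR1KO female 4, with group means of 193 to 214 CPM. Neither neighbour was called in any comparison, although Dmgdh was lower in ESR1KO females than in ESR1KO males by -0.34 (95% interval -0.61 to -0.07, adjusted p = 0.202) and than in WT males by -0.37 (95% interval -0.67 to -0.08, adjusted p = 0.171). Sardh (ENSMUSG00000009614, chr2:27188393-27248337, minus strand) encodes sarcosine dehydrogenase, which turns sarcosine into glycine. Its levels in ESR1KO females spread from 424 to 935 CPM, with 424 CPM in ESR1KO female 1, while ESR1KO males held between 842 and 962 CPM, WT females between 873 and 1131 CPM and WT males between 643 and 868 CPM. The WT sexes did not overlap but were not called apart (log2 0.35, 95% interval -0.14 to 0.84, adjusted p = 0.48). ESR1KO females were below WT females by -0.42 (95% interval -0.86 to 0.01, adjusted p = 0.23), and by -0.28 without ESR1KO female 1.

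Over the 9 genes, the median log2 difference was 0.15 between the WT sexes, -0.30 between the ESR1KO sexes, -0.25 for the knockout in females and 0.22 for the knockout in males. The medians over all tested genes in the same order were 0.01, 0.01, 0 and 0. All 9 estimates were negative between ESR1KO females and males, where 51.7% of all genes were positive. The 9 signs are not separate observations, because the genes varied together over the mice. With group means removed, Pearson r ran from -0.58 (Nnmt and Chdh) to 0.92 (Cbs and Sardh), with 0.88 for Cbs and Chdh. In the same comparison 31.9% of the 69 related genes described below were positive, with a median log2 difference of -0.11. Estimates were positive for 2 of 7 hepatocyte, 2 of 7 periportal and 1 of 7 pericentral markers, and for 5 of 6 lymphocyte markers. The 6 Kupffer cell markers were all higher in ESR1KO females, 5 with an unadjusted p below 0.05 and 1 called. They summed to 316 to 405 CPM in ESR1KO females and 242 to 314 CPM in ESR1KO males. The part of these lists in the difference of the 9 genes was not tested. Without ESR1KO female 1, the mouse with the lowest share of its counts in these genes, the 9 estimates were still negative and lay between -0.38 and -0.09, and none was called in that fit either. Members were not overlapping between the WT sexes for 4 of 9 genes (Mat1a, Pemt, Nnmt and Sardh, against 30.1% of all genes) and between ESR1KO and WT males for 3 of 9 (Mat1a, Pemt and Chdh, against 15.9% of all genes).

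A list of 70 further genes of methionine, folate, choline, polyamine and nicotinamide metabolism was compared in the same fits, and 69 of them were tested, all but Dao. The list was chosen with earlier results of these data known. Its shares, here and below, are therefore no test of the list against all genes. Between the WT sexes 9 of the 69 (13%) were called, 1 higher and 8 lower in females, against 1 of the 9 genes above (11.1%) and 4.87% of all genes. Aldehyde oxidases Aox3 and Aox1, which oxidise the methylnicotinamide that Nnmt makes, were lower in WT females by log2 values of -2.08 (adjusted p = 1.25e-05) and -1.35 (0.00167). Chpt1, the last enzyme of the CDP-choline route to phosphatidylcholine that runs beside Pemt, was lower by -0.96 (0.00107). Also lower were Mthfd2, a mitochondrial folate enzyme (-1.79), Csad, which makes the taurine precursor hypotaurine from a cysteine product (-1.75), Tpmt, the thiopurine methyltransferase (-1.09), Ahcyl2 (-0.57) and Etnk1, an ethanolamine kinase (-0.48). Gatm, which makes the guanidinoacetate that is methylated to creatine, was the 1 gene higher in WT females (0.46, adjusted p = 0.0411), and its call was lost when any of 8 mice was left out (0.0509 to 0.162).

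**Figure D4:**
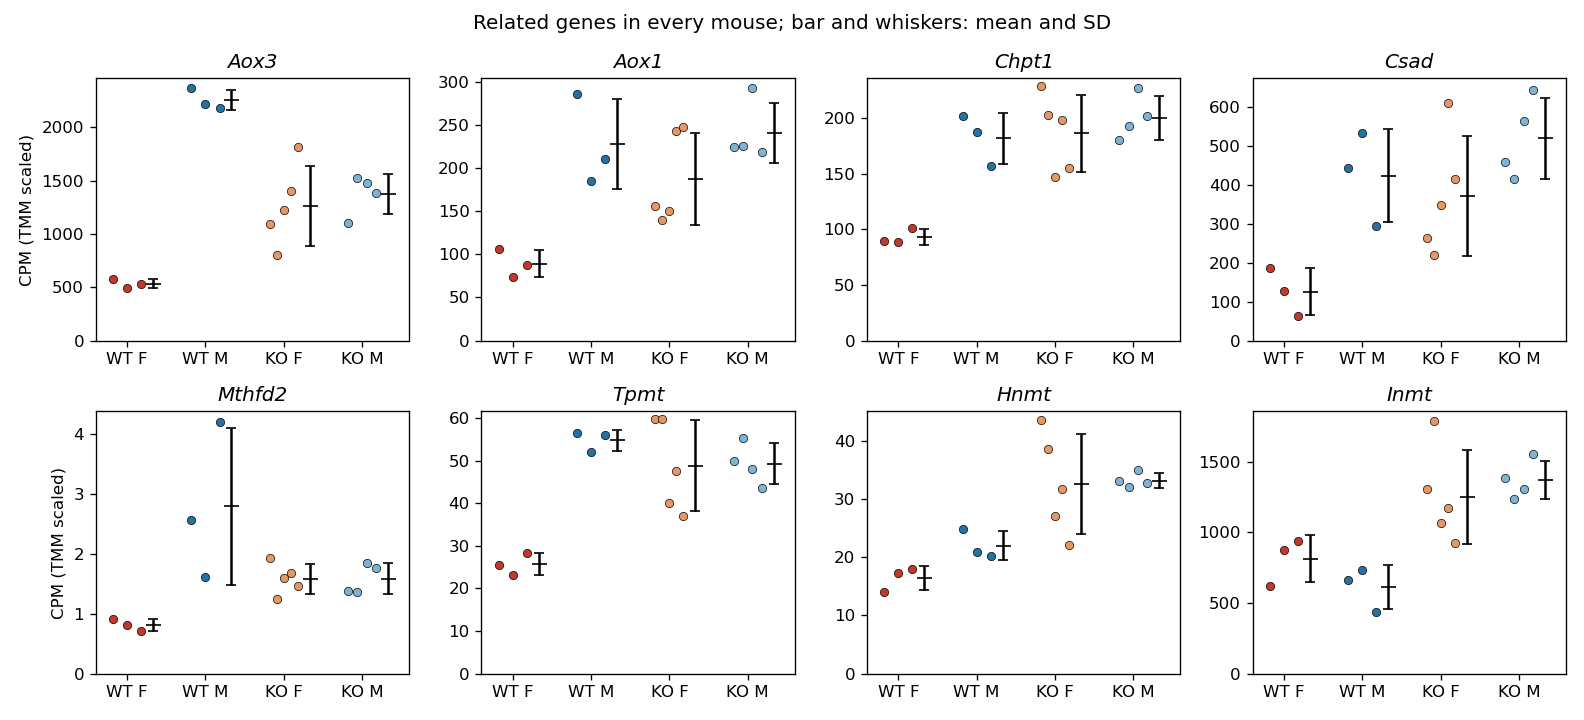
CPM of 8 related genes in every mouse by group (WT F and WT M are WT females and males, KO F and KO M the ESR1KO sexes); each point is 1 mouse and the bar and whiskers are mean and SD. For Aox3 the WT females (492.5 to 575 CPM) and WT males (2182 to 2367 CPM) lie at the 2 ends and both ESR1KO groups between them, while for Chpt1 and Tpmt the WT females alone lie low.

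In ESR1KO females 8 of the 69 genes were called higher than in WT females and 1 lower, 13% together. Over all genes 5.71% were called, 3.14% higher and 2.57% lower. Chpt1 went from 88.8 to 101 CPM in WT females to 147 to 228 CPM in ESR1KO females (log2 1, SE 0.146, adjusted p = 0.000517), and the 2 groups did not overlap. Aox3 rose by 1.25 (adjusted p = 0.00154), Tpmt by 0.93 (0.00152), Hnmt, the histamine methyltransferase, by 0.99 (0.00302), Etnk1 by 0.47 (0.00371), Aox1 by 1.07 (0.00714), Csad by 1.57 (0.0154) and Mthfd2 by 0.96 (0.0449). Shmt1, which exchanges 1-carbon units between serine and glycine, fell by 0.50 (adjusted p = 0.0442). The calls of Mthfd2 and Shmt1 were each lost in 12 of 15 fits when a single mouse was omitted (0.0505 to 0.179 and 0.0513 to 0.164), Csad was lost without WT female 2 (0.0637) or WT female 3 (0.0823), and Aox1 without WT female 2 (0.052).

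In males 1 of the 69 genes (1.45%) was called between the genotypes, near the 1.42% of all genes. Inmt, an indolethylamine methyltransferase, went from 436 to 733 CPM in WT males to 1235 to 1552 CPM in ESR1KO males (log2 1.17, SE 0.225, adjusted p = 0.0138), a call that was lost without WT male 3 (0.093). None of the 69 genes was called between ESR1KO females and males, where 15 (21.7%) had an unadjusted p below 0.05, against 17.5% of all genes, and DESeq2 called 1, against 2.95% of the genes it tested. Without ESR1KO female 1 the calls among the 69 numbered 9 in the female genotype comparison, 0 between the ESR1KO sexes and 5 in the interaction. Over all genes they numbered 892, 30 and 370 of 17545 in the same order. The interaction was positive and called for 5 of the 69 genes (7.25%) and negative and called for 0. Over all genes 1.02% were called positive and 0.923% negative. The 5 genes were Aox3 (1.96, adjusted p = 0.000669), Mthfd2 (1.78, 0.0144), Tpmt (1.08, 0.0103), Chpt1 (0.86, 0.0378) and Ahcyl2 (0.67, 0.0231), so these differed between the sexes in the opposite direction to Mat1a. The interaction is also the sex difference of ESR1KO mice minus that of WT mice. Mat1a was higher and these 5 genes were lower in WT females, so the signs are not separate from the WT sex differences. For Aox3 the female effect of 1.25 stood beside a male value of -0.72 that was not called (adjusted p = 0.104), and for Chpt1 a female effect of 1 stood beside a male value of 0.14 (0.793). Leaving out single mice ended the interaction of Chpt1 in 10 of 15 fits (0.0566 to 0.123) and that of Ahcyl2 in 5 (0.0544 to 0.0844), and Mthfd2 was lost without WT female 3 (0.0513).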

How the data were processed

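The authors extracted liver RNA with TRIzol, depleted ribosomal RNA, made TruSeq libraries and ran them paired-end on a NovaSeq6000, with an added run for low-read samples, which were not named. Per the labels, reads were trimmed with Trimmomatic 0.36, aligned to GRCm38 with STAR and counted per gene with HTSeq 0.6.0. The annotation release, strand setting and treatment of multiply mapped reads were not given in the sources used here. The deposited values are raw counts, 1 column per mouse, with no normalization.

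Groups were taken from the labels. Apart from the added run, the sources used here name no batch, and p-values measure the spread between these libraries. Counts were fitted in R 4.3.3 with edgeR 4.0.16 (TMM, filterByExpr by group, a mean per group over all 15 libraries, quasi-likelihood F test, Benjamini-Hochberg adjustment over 17655 genes). Intervals at 95% came from the same fit, and log2 CPM used a prior count of 2. Test steps were tested on simulated counts. Replicates of a group differed by a chi-square per gene of at least 23.5 over genes with 10 or more counts, so none was a repeat of another. Gene positions and exon lengths came from GENCODE M21, which held 55394 of the 55573 gene identifiers, and promoter windows from RefSeq. Text names all 9 genes, the 6 related genes with the largest called change per comparison and direction and the genes most alike over mice (mean log2 CPM from 3 upwards). Ahcyl2, Etnk1 and Tpmt were also named where they fell outside these 6, after their values were seen. The members and lists were chosen with earlier results of these data known. Alternatives were other size factors, other filters, DESeq2 1.42.0, a fit of the compared groups only, a replicate block, a fold minimum and leaving out each mouse. Pyrosequencing and other assays of the study were not analysed here.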

Additional observations from a re-analysis of the deposited data

Results flagged for a closer look

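The effect of the knockout differed between the sexes, by the interaction term of the edgeR fit, for Mat1a (-0.91 on the log2 scale) and for Aox3 (1.96), Mthfd2 (1.78), Tpmt (1.08), Chpt1 (0.86) and Ahcyl2 (0.67) among the related genes. A single mouse lay far from its group for 2 genes out of 40 groups of 4 or 5 mice examined with Dixon's criterion, a number that chance alone gives at about 1 group in 20. Pemt was 153.6 CPM in ESR1KO female 1, with the next ESR1KO female at 233.8 CPM. Aox1 was 293.5 CPM in ESR1KO male 3, with the next ESR1KO male at 226.2 CPM.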

How the results depend on the processing

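Across 63 differences of the 9 genes and 1377 refits under other settings, 1313 kept their direction and their side of the threshold, 18 lost a call, 17 gained one and 29 changed sign. The changes of sign touched 12 differences, none larger than 0.17 on the log2 scale and none called in any fit. Besides fits without 1 mouse they were Gnmt between the WT sexes without a filter (-0.01), Gnmt between ESR1KO females and WT males with total counts as the scale (0.01), and, with a replicate block, Nnmt between the ESR1KO sexes (0.01), Chdh between ESR1KO and WT females (-0.03) and Pemt between ESR1KO females and WT males (-0.07). The cause was not tested.

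Of the 9 genes, fitting only the compared groups called 2 between the WT sexes, 1 for the female and 2 for the male genotype comparison. DESeq2 called 1 between the ESR1KO sexes, 1 for the female and 1 for the male genotype comparison, and 1 between ESR1KO females and WT males. Without a filter 1 was called for the female genotype comparison, 0 in the interaction and 2 between ESR1KO males and WT females. The replicate block left 0 between ESR1KO males and WT females, and a minimum log2 difference of 1.5 left 0 in every comparison. Without 1 mouse the counts ran from 0 to 1 between the WT sexes, 0 to 0 between the ESR1KO sexes, 0 to 1 and 0 to 2 for genotype in females and males, 0 to 1 in the interaction, 0 to 1 between ESR1KO females and WT males and 0 to 2 between ESR1KO males and WT females.

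Of the related genes, fitting only the compared groups called 14 between the WT sexes and 5 for the male genotype comparison. Calls over all genes rose too in that fit, from 860 to 1261 and from 250 to 422. DESeq2 called 1 between the ESR1KO sexes, 3 for males and 9 in the interaction, and dropping the filter 1 between the ESR1KO sexes and 3 for males. The replicate block left 3 in the interaction. The minimum of 1.5 left 3 between the WT sexes, 1 for females, 0 for males and 2 in the interaction. Without 1 mouse the counts ran from 8 to 10, 0 to 0, 5 to 10, 0 to 2 and 3 to 7 in the order WT sexes, ESR1KO sexes, females, males and interaction.

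Calls over all genes also changed with the setting, as did the number of genes tested. The main fit called 860 between the WT sexes and 48 between the ESR1KO sexes. It called 1008 between ESR1KO and WT females, 250 between ESR1KO and WT males and 343 in the interaction. In the same order DESeq2 called 1191, 449, 1522, 486 and 587, and dropping the filter 968, 313, 1126, 411 and 486. Fitting only the compared groups, which leaves no interaction, called 1261, 26, 457 and 422. The replicate block left 289 in the interaction. Mice with the same replicate number did not deviate together: over 19 pairs the median correlation of deviations was -0.023 and 1 pair exceeded 0.1, so the numbers were not taken as pairs.

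Without 1 mouse, the differences that changed sign ran from -0.11 to 0.17 for Gnmt between the WT sexes, from -0.19 to 0.03 for Gnmt between ESR1KO and WT females and from -0.18 to 0.06 for Gnmt between ESR1KO females and WT males. In the last of these comparisons Pemt ran from -0.02 to 0.14, Chdh from -0.10 to 0.06 and Sardh from -0.18 to 0.07. Nnmt ran from -0.27 to 0.24 between the ESR1KO sexes. Between ESR1KO and WT males Nnmt ran from -0.47 to 0.02, Cbs from -0.01 to 0.20, Bhmt from -0.31 to 0.17 and Dmgdh from -0.15 to 0.05.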
